A study of Mus musculus with 2 samples.

Results

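Cathepsins are proteases found in the lysosome and in the cytotoxic granule. The members described here were 10 of the 31053 genes counted in natural killer (NK) cells of the mouse brain, chosen by name: the cathepsins Ctsw, Ctsc, Ctsd, Ctsb, Ctsl, Ctss and Ctsz, and the inhibitors Cst7, Ctla2a and Ctla2b. All 10 were found by symbol in both libraries. The study sorted NK cells by fluorescence from the brains of 8-month-old females and read them as single cells with the 10x Genomics 5′ chemistry. The wildtype library came from C57BL/6 mice without treatment, and the other from untreated 3XTg-AD mice, a transgenic line with Alzheimer-type pathology. How many mice went into a library, which background the 3XTg-AD mice have and which markers were sorted on is not stated in those sources that were used. With 1 library per genotype, genotype and library cannot be told apart, and no test was possible. Every interval below is a 95% interval for counting error only.

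Most cathepsins are made as inactive precursors and mature in the acid of the endolysosome, where they cut proteins for turnover and antigen processing. Cytotoxic lymphocytes also use them in the granule, where cathepsin C trims granzymes to their active form. Cystatin F, the product of Cst7, is a cystatin that enters granules and restrains cathepsin C and related enzymes. Ctla2a and Ctla2b encode small proteins that resemble the propeptide of cathepsin L-type enzymes, and CTLA-2 alpha inhibits such enzymes.

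The wildtype library held 1709 barcodes with a median of 2930 unique molecular identifiers (UMIs, counted molecules), and the 3XTg-AD library held 1695 with a median of 2846. After filters, 1492 wildtype and 1516 3XTg-AD barcodes were NK, or 90.5% and 91.2% of those kept: they carried at least 5 UMIs of 6 NK marker genes (with medians of 29 and 32), little or no signal of T cells, B cells or C1qa, and under 3 UMIs summed over Itga1, Cxcr6, Inpp4b, Gzmc and Tnfsf10. A further 92 and 72 barcodes had at least 3 UMIs of those 5 genes and are called ILC1-like, after the innate lymphoid cells that share these genes. Their sum had a median of 6 and 4 UMIs, so many lay near the limit (20 and 23 barcodes held exactly 3 UMIs, and 36 and 27 held 2). ILC1-like barcodes were also deeper, with medians of 5330.5 and 5555 UMIs against 2863 and 2790.5 in NK barcodes. Microglia-type C1qa-positive barcodes numbered 7 and 28. The libraries shared 1 barcode sequence. An interferon list of 37 genes reached 10 UMIs in 72 wildtype and 17 3XTg-AD NK barcodes.

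Levels are given as CPM, the UMIs of a gene scaled to a total of 1000000 UMIs over the barcodes of a class. In NK barcodes the 10 genes ranged from 1.29 to 955 CPM in wildtype, and the first 3 were the same in both libraries. Ctsw led with 955 CPM in wildtype (927 to 984) and 1047 in 3XTg-AD (1018 to 1077). Ctsd, an aspartic protease of the lysosome, followed at 602 and 779 CPM, and Cst7 at 401 and 486 CPM. The intervals of these 3 genes did not overlap one another in either library. Ctsc (193 CPM) and Ctla2a (197 CPM) could not be ordered in wildtype, whereas in 3XTg-AD Ctsc stood at 257 CPM and Ctla2a at 96.5 CPM. Ctsb, Ctla2b, Ctsz and Ctss stood at 91.9, 67.1, 47.2 and 35.8 CPM in wildtype and at 111, 56.2, 77.3 and 26.1 CPM in 3XTg-AD. All 4 lay below Ctla2a in wildtype, whereas in 3XTg-AD the intervals of Ctsb (102 to 121) and Ctla2a (87.8 to 106) overlapped. Ctsl had 6 and 12 UMIs in all, or 1.29 and 2.59 CPM. The libraries were read from the 5′ end of transcripts, so these sums were not divided by gene length.

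**Figure D1:**
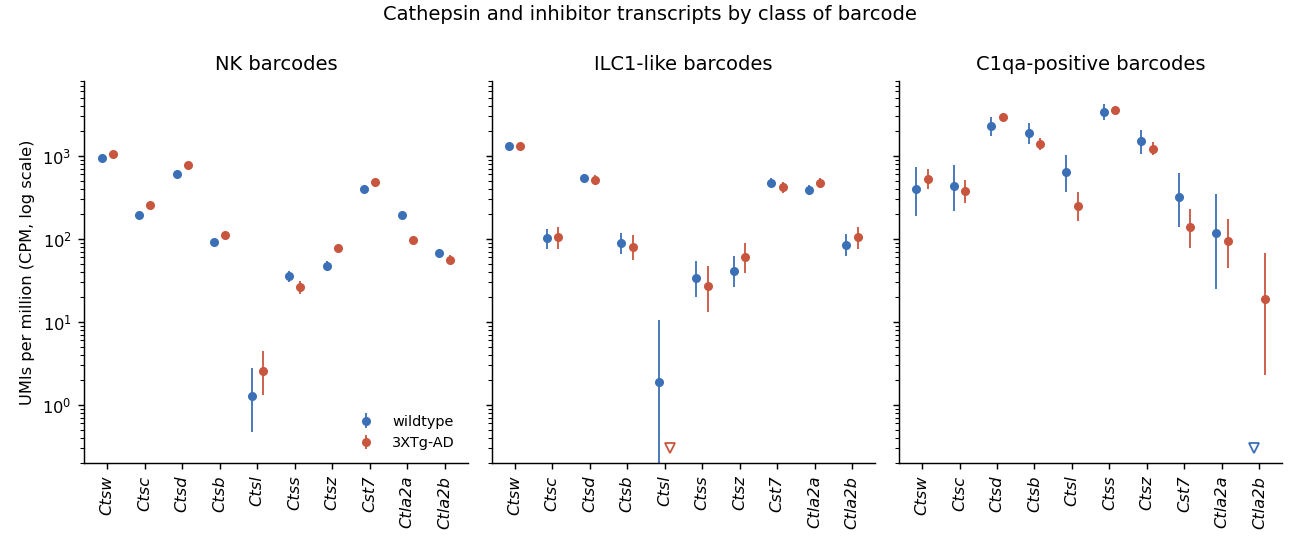
Level of each gene in CPM on a log axis, in NK, ILC1-like and C1qa-positive barcodes of the wildtype and 3XTg-AD libraries. Points are sums over the class, bars are exact Poisson 95% intervals, and open triangles mark genes with 0 UMIs. Ctsw leads in NK barcodes, whereas Ctss leads in C1qa-positive barcodes.

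Ctsw encodes cathepsin W, a cathepsin found mainly in cytotoxic lymphocytes, and lies at chr19:5465043-5468507 on the minus strand of mm10. NK barcodes held 4428 of its UMIs in the wildtype library and 4860 in the other, a ratio of 1.10 (1.05 to 1.14). It was also the leading member in ILC1-like barcodes, with 1304 and 1322 CPM. That was 1.36-fold its NK level in wildtype (1.26 to 1.48) and 1.26-fold in 3XTg-AD (1.15 to 1.38). Ctsw differed little by maturation status. NK cells lose CD27 and gain KLRG1 as they mature, and barcodes were grouped by at least 1 UMI of Cd27 and Klrg1. The 4 groups ranged from 911 to 1032 CPM in wildtype and from 1005 to 1093 CPM in 3XTg-AD. A barcode without a Cd27 or Klrg1 UMI may still come from a cell with that transcript, so the groups are blurred.

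Ctsc, the granzyme-activating dipeptidyl peptidase (chr7:88278085-88310888, plus strand), was higher in the more mature status. In wildtype it stood at 147 CPM in the 125 Cd27+Klrg1- barcodes, 172 in the 29 Cd27+Klrg1+, 163 in the 652 Cd27-Klrg1- and 225 in the 686 Cd27-Klrg1+ barcodes. In 3XTg-AD the same order of groups gave 162, 234, 228 and 295 CPM, from 99, 38, 695 and 684 barcodes. The ratio of Cd27-Klrg1+ to Cd27+Klrg1- was 1.53 in wildtype (1.17 to 2.03) and 1.82 in 3XTg-AD (1.37 to 2.45). Scaling without ribosomal protein and mitochondrial genes lowered the wildtype ratio to 1.41. ILC1-like barcodes held less Ctsc than NK barcodes, 102 and 105 CPM, or 0.529 (0.394 to 0.696) and 0.408 (0.293 to 0.552) of the NK level. When barcodes were thinned to 1400 UMIs the wildtype value was 0.667, and when the ILC1 genes were counted on thinned UMIs it was 0.798; neither passed 1.5-fold. Between libraries Ctsc was 1.33-fold higher in 3XTg-AD NK barcodes (1.22 to 1.45), while the ratio in ILC1-like barcodes was 1.02 (0.670 to 1.56).

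Ctsd (chr7:142375911-142388038, minus strand) was detected in all 4 status groups and was somewhat higher in the mature one. Wildtype Ctsd ran from 469 CPM in Cd27+Klrg1+ to 661 in Cd27-Klrg1+ barcodes, and 3XTg-AD Ctsd from 674 in Cd27+Klrg1- to 833 in Cd27-Klrg1+. The ratio of Cd27-Klrg1+ to Cd27+Klrg1- was 1.33 in wildtype (1.15 to 1.55) and 1.24 in 3XTg-AD (1.07 to 1.43). The 3XTg-AD value was above the wildtype one in each group, by 1.36-fold in Cd27+Klrg1-, 1.73-fold in Cd27+Klrg1+, 1.26-fold in Cd27-Klrg1+ and 1.30-fold in Cd27-Klrg1- barcodes. Over all NK barcodes the ratio was 1.29 (1.23 to 1.36), and in ILC1-like barcodes it was 0.935 (0.779 to 1.12), from 547 and 511 CPM. ILC1-like barcodes of 3XTg-AD held 0.656 of the NK level of Ctsd (0.568 to 0.755), against 0.908 in wildtype (0.801 to 1.02). Scaling without ribosomal protein and mitochondrial genes raised the former to 0.797.

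Ctsz, a carboxypeptidase also called cathepsin X (chr2:174427493-174439039, minus strand), had the highest ratio between libraries among the 9 genes measured. The 219 wildtype and 359 3XTg-AD UMIs in NK barcodes gave a ratio of 1.64 (1.38 to 1.95). By status the ratio was 1.99 in Cd27-Klrg1+ (1.54 to 2.57), 1.41 in Cd27-Klrg1- (1.09 to 1.84) and 1.34 in Cd27+Klrg1- barcodes (0.679 to 2.65). In Cd27+Klrg1+ barcodes, with 7 and 8 UMIs, it was 0.899 (0.285 to 2.91). Thinning to 1400 UMIs lowered the ratio over all NK barcodes to 1.31, so that it no longer reached 1.5. In ILC1-like barcodes 22 and 25 UMIs gave 1.46 (0.791 to 2.72). Ctsb, a broad lysosomal cysteine protease (chr14:63122462-63145923, plus strand), held 426 and 515 NK UMIs, a ratio of 1.21 (1.06 to 1.38). Its status ratio was 0.790 in wildtype (0.577 to 1.10) and 1.12 in 3XTg-AD (0.793 to 1.64), with both intervals spanning 1. ILC1-like barcodes held 88.9 and 80.3 CPM of Ctsb, 34.1 and 26.8 CPM of Ctss, and 1 and 0 UMIs of Ctsl, an enzyme of the same family that other cell types use in antigen processing.

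Ctss, the antigen-processing cathepsin of myeloid and antigen-presenting cells (chr3:95526786-95556403, plus strand), was the lowest of the measured members in NK barcodes and had the highest ratio of them with the interferon list, of which it is no member. In wildtype it stood at 107 CPM in the 72 NK barcodes with at least 10 interferon-list UMIs and at 31.2 CPM in the other 1420. That was a 3.42-fold difference (2.22 to 5.11), resting on 30 and 136 UMIs. Their median depths were 3391.5 and 2835.5 UMIs. Of the 9 members measured, 5 passed 1.5-fold here, with Ctss, Ctla2a and Ctsb higher and Ctsc and Ctsz lower, and so did 24.8% of 5260 genes. In 3XTg-AD the 17 barcodes with as many interferon UMIs held 2 Ctss UMIs (20.8 CPM) against 26.2 CPM in the rest. Over all NK barcodes the ratio between libraries was 0.728 (0.571 to 0.926). Among barcodes with under 10 interferon UMIs it was 0.838 (0.650 to 1.08), an interval that reached past 1. The 250 bases before the RefSeq start of Ctss (GRCm38.p6, chr3:95526536-95526785, plus strand) are shown because they hold an interferon-stimulated response element core. The letters searched were GAAANNGAAA on both strands, which were chosen after the Ctss values were seen, and the match is in capitals.
Ctss: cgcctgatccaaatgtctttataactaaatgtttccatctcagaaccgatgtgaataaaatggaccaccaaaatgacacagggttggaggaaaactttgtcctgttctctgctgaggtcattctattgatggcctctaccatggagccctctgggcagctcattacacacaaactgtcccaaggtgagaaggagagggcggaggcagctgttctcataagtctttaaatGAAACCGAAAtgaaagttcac
Of 32851 RefSeq promoter windows of this length, 2.98% held a match. Of the 8 members with a window, Ctss alone did; Ctsb and Ctsw had no window. A match is a string of letters and does not show that a factor binds there.

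Cst7, the gene of cystatin F (chr2:150570415-150578944, plus strand), was higher in Cd27-Klrg1+ than in Cd27+Klrg1- barcodes. Among groups by Gzmb UMIs it was lowest where thinned counts held no Gzmb UMI. In wildtype it stood at 356 CPM in Cd27+Klrg1- and 448 in Cd27-Klrg1+ barcodes, a ratio of 1.26 (1.06 to 1.51). In 3XTg-AD it stood at 328 and 511 CPM, a ratio of 1.56 (1.28 to 1.92). Without ribosomal protein and mitochondrial genes in the scaling this last ratio was 1.45. NK barcodes were also grouped by their Gzmb UMIs after thinning to 1400 UMIs, while the members were summed from the counts before thinning. Barcodes with at least 10 Gzmb UMIs held 1.33-fold more Cst7 than those with none in wildtype (1.12 to 1.57). In 3XTg-AD they held 1.57-fold more (1.23 to 2.0). The 3XTg-AD library had 32 such Gzmb-rich barcodes and the wildtype library 141. With 0, 1 to 2, 3 to 9 and at least 10 Gzmb UMIs, Cst7 stood at 303, 404, 516 and 402 CPM in wildtype, highest at 3 to 9, and at 415, 469, 571 and 652 CPM in 3XTg-AD. Between libraries Cst7 was 1.21-fold higher in 3XTg-AD NK barcodes (1.14 to 1.29) and stood at 0.883 in ILC1-like barcodes (0.723 to 1.08).

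Ctla2a showed the largest ratios of the 9 measured genes by status, between classes and between libraries in NK barcodes. In wildtype NK barcodes it stood at 469 CPM in Cd27+Klrg1-, 235 in Cd27+Klrg1+, 275 in Cd27-Klrg1- and 89.3 in Cd27-Klrg1+. In 3XTg-AD the values were 276, 129, 128 and 43.3 CPM. The Cd27-Klrg1+ level was 0.190 of the Cd27+Klrg1- level in wildtype (0.156 to 0.232) and 0.157 in 3XTg-AD (0.117 to 0.211). Ctla2a was lower at each step of Klrg1 UMIs: with 0, 1, 2 and at least 3 Klrg1 UMIs it stood at 312, 148, 85.4 and 68.4 CPM in wildtype, and at 151, 90.1, 33.0 and 15.8 CPM in 3XTg-AD. The intervals of the last 2 steps overlapped in both libraries. Low Gzmb counts, again taken after thinning, gave a like order. Barcodes without a Gzmb UMI held 299 and 176 CPM of Ctla2a, and those with 1 to 2 held 155 and 68.6 CPM. In wildtype it stood at 166 CPM with at least 10 Gzmb UMIs, whereas the 32 such 3XTg-AD barcodes held 1 Ctla2a UMI.

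**Figure D2:**
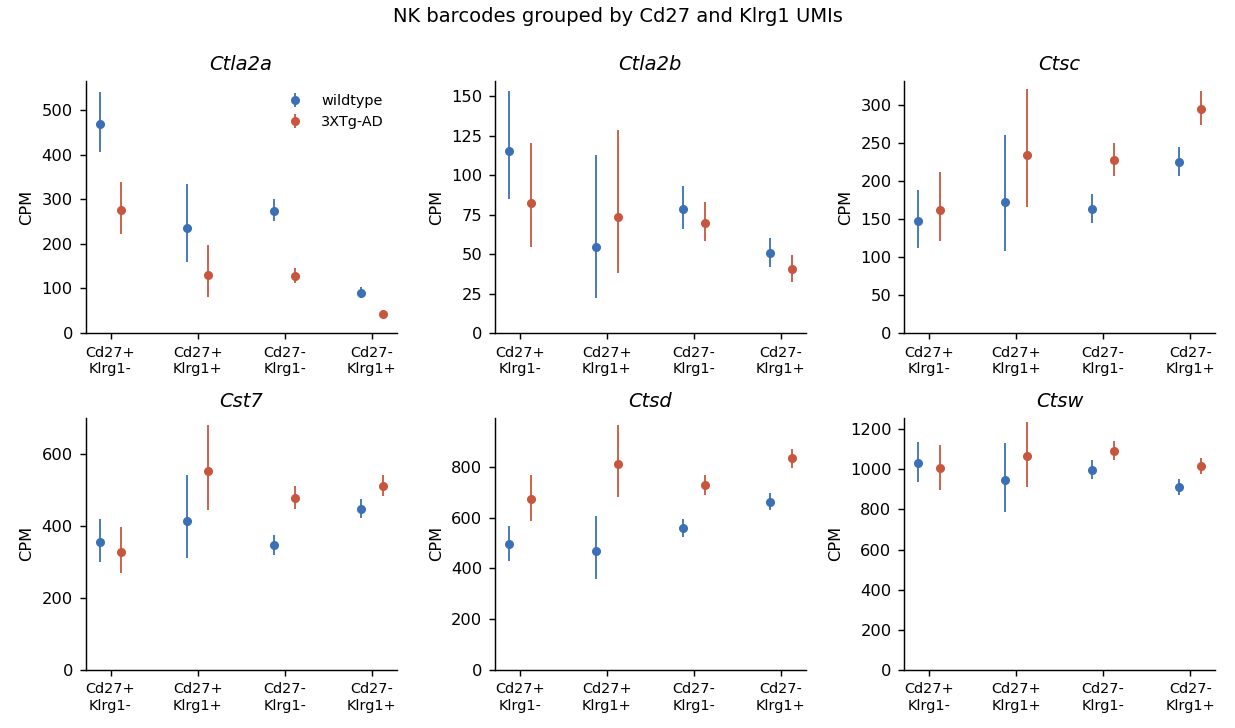
Level in CPM (from 0) of Ctla2a, Ctla2b, Ctsc, Cst7, Ctsd and Ctsw in NK barcodes grouped by Cd27 and Klrg1 UMIs, for both libraries, with exact Poisson 95% intervals. Ctla2a is lowest in Cd27-Klrg1+ barcodes (89.3 and 43.3 CPM), whereas Ctsc is highest there (225 and 295 CPM).

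Between libraries Ctla2a in NK barcodes held 913 UMIs (197 CPM) in wildtype and 448 UMIs (96.5 CPM) in 3XTg-AD, a ratio of 0.490 (0.437 to 0.549). It was lower in each of the 4 status groups, with ratios of 0.588 in Cd27+Klrg1- (0.452 to 0.758), 0.551 in Cd27+Klrg1+ (0.30 to 0.994), 0.467 in Cd27-Klrg1- (0.398 to 0.547) and 0.486 in Cd27-Klrg1+ barcodes (0.379 to 0.619). Ctla2a also moved with the interferon list in wildtype, at 524 CPM in the 72 barcodes with at least 10 interferon UMIs against 176 CPM in the rest, a ratio of 2.98 (2.48 to 3.56). In 3XTg-AD the 17 such barcodes held 93.7 CPM and the rest 96.6 CPM. Without those barcodes the ratio between libraries was 0.549 (0.487 to 0.618).

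In ILC1-like barcodes Ctla2a was not lower in 3XTg-AD: it held 204 UMIs in wildtype (386 CPM) and 194 in 3XTg-AD (472 CPM), a ratio of 1.22 (1.0 to 1.5). Whether the ratio differs between NK and ILC1-like cells beyond variation among mice was not tested. The ILC1-like classes of the libraries also differed in make-up. In wildtype and 3XTg-AD they held 3966 and 1232 CPM of Gzmb and 749 and 1236 CPM of Ncr1. At least 8 ILC1 UMIs were found in 37 and 14 of their barcodes. How this bears on the Ctla2a ratios in ILC1-like barcodes was not tested. The ILC1-like level was 1.96-fold the NK level in wildtype (1.68 to 2.28) and 4.89-fold in 3XTg-AD (4.11 to 5.80). Over NK and ILC1-like barcodes together, Ctla2a stood at 190, 205, 367, 466 and 341 CPM with 0, 1, 2, 3 to 5 and at least 6 UMIs of the 5 ILC1 genes in wildtype. In 3XTg-AD it stood at 79.9, 212, 383, 465 and 482 CPM. The ratio between libraries was 0.420 in the barcodes without an ILC1 UMI (0.369 to 0.478). It was 1.03, 1.04 and 0.997 with 1, 2 and 3 to 5 ILC1 UMIs, with intervals that spanned 1. With at least 6 it was 1.41 (1.06 to 1.89), so that Ctla2a was there higher in 3XTg-AD.

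**Figure D3:**
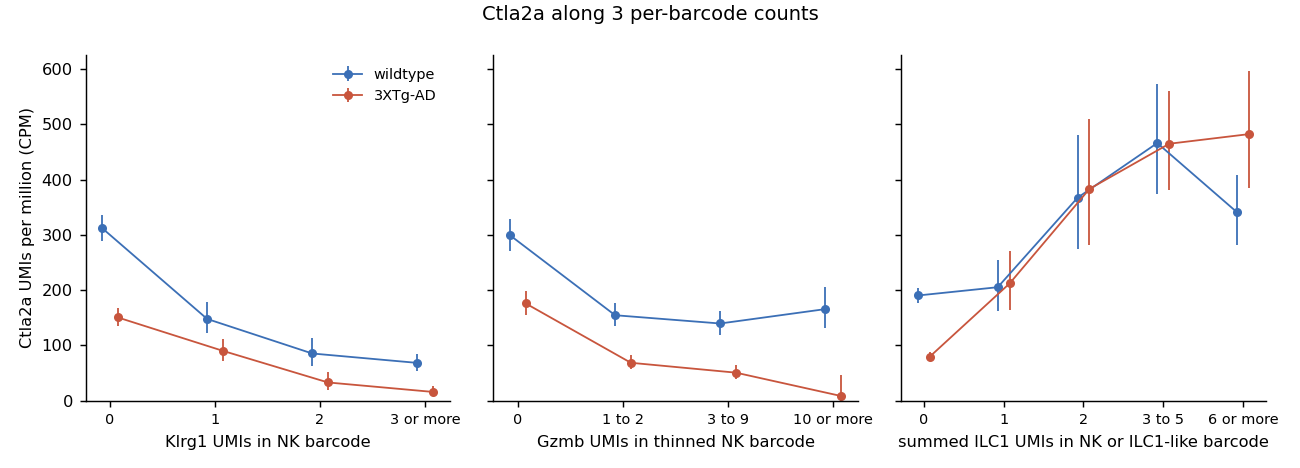
Ctla2a in CPM against Klrg1 UMIs per NK barcode, Gzmb UMIs per NK barcode thinned to 1400 UMIs, and summed UMIs of the 5 ILC1 genes per NK or ILC1-like barcode, with exact Poisson 95% intervals. The level goes down with Klrg1 in both libraries (312 to 68.4 and 151 to 15.8 CPM). By ILC1 UMIs, 3XTg-AD is lower in barcodes without one (190 and 79.9 CPM) and higher with at least 6 (341 and 482 CPM).

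Ctla2b followed Ctla2a by status, with smaller differences. It stood at 115 and 82.7 CPM in Cd27+Klrg1- barcodes and at 50.6 and 40.3 CPM in Cd27-Klrg1+ barcodes of wildtype and 3XTg-AD, ratios of 0.438 (0.311 to 0.626) and 0.487 (0.315 to 0.778). Between libraries its NK ratio was 0.838 (0.708 to 0.991), and in ILC1-like barcodes it was 1.23 (0.790 to 1.91). ILC1-like barcodes held 1.27-fold the NK level in wildtype (0.907 to 1.74) and 1.86-fold in 3XTg-AD (1.32 to 2.58), and the latter was 1.29-fold after thinning. Ctla2a made up 74.6% of the pair's UMIs in wildtype NK barcodes (exact interval 72.1% to 77.0%) and 63.2% in 3XTg-AD (59.5% to 66.7%). In ILC1-like barcodes the share was 81.9% in both libraries, and in Cd27-Klrg1+ NK barcodes it was 63.8% and 51.8%.

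The genes lie near each other on the minus strand of chromosome 13, Ctla2a at chr13:60934155-60936625 and Ctla2b at chr13:60895350-60897447. Their sequences before the start are shown because both were lower with Klrg1, by different sizes. The windows are the 250 bases upstream of the RefSeq starts (GRCm38.p6, minus strand), at chr13:60936626-60936875 for Ctla2a and chr13:60897448-60897697 for Ctla2b. In an alignment of the windows 209 of 236 columns (88.6%) were identical. Capitals mark bases that differ from the other gene or face a gap. The first 14 bases of Ctla2a and the last 22 of Ctla2b lie outside the aligned stretch and are in lower case.
Ctla2a: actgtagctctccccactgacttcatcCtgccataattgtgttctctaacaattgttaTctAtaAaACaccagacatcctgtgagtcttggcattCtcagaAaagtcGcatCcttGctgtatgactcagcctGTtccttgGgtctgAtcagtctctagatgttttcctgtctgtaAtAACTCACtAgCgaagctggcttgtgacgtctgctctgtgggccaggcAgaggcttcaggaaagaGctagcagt
Ctla2b: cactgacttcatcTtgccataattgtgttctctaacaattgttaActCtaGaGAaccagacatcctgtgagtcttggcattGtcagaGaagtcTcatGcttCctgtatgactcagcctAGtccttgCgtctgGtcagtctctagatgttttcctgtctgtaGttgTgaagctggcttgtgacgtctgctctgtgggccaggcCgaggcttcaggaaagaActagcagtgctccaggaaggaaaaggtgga
The transcripts were alike enough to ask whether reads could be told apart. Over the first 300 bases of the longest coding transcripts, 225 of 236 aligned columns were identical, yet 12 of 226 windows of the read length of 75 bases (5.31%) occurred unchanged in the other gene. Where reads fell along the transcripts was not examined, so the share of reads that could not be told apart is not known.

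Most members stayed under 1.5-fold between libraries in NK barcodes, though the share that passed was above that of all genes. Of the 9 members with at least 20 UMIs, 1 was at least 1.5-fold higher in 3XTg-AD (Ctsz) and 1 at least 1.5-fold lower (Ctla2a). The background was 5.99% of the 7216 genes with at least 100 UMIs in either direction, 3.53% higher and 2.45% lower, and 12.3% of the 9835 genes with at least 20. All 9 members had over 100 UMIs. Their median log2 ratio was 0.27, against 0.05 for those 7216 genes. The intervals of 6 members lay above 1 (Ctsw, Ctsc, Ctsd, Ctsb, Ctsz and Cst7) and those of 3 below (Ctss, Ctla2a and Ctla2b). The share of all genes with such intervals is not given, so these counts have no background to be read against. In ILC1-like barcodes 0 of 9 members reached 1.5-fold, with a background of 5.69% of 1230 genes with at least 100 UMIs and 22.3% of 5110 genes with at least 20, a minimum all 9 passed. Their median log2 ratio was 0.02.

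**Figure D4:**
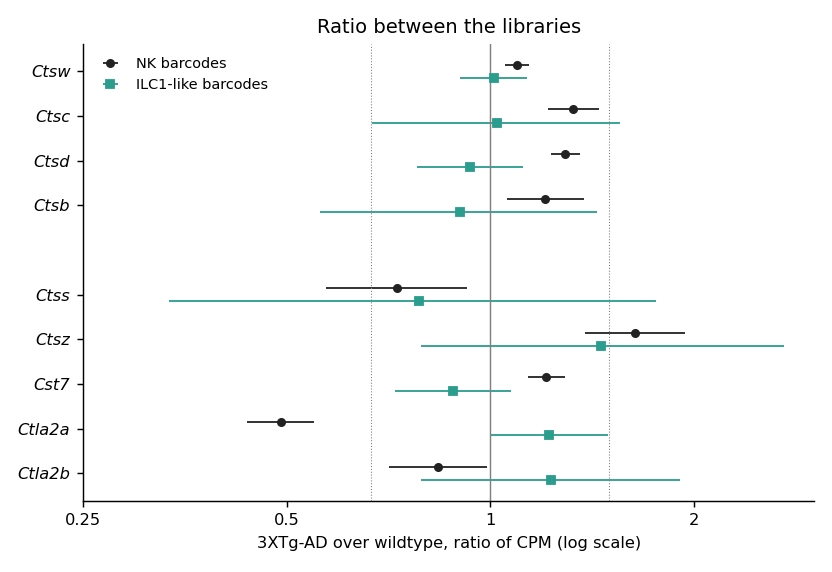
Ratio of 3XTg-AD to wildtype CPM on a log axis for the 9 genes with at least 20 UMIs, in NK (circles) and ILC1-like barcodes (squares), with exact 95% intervals for counting error. Dotted lines mark 1.5-fold; Ctla2a is at 0.490 in NK and 1.22 in ILC1-like barcodes.

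By status, 4 of 9 members passed 1.5-fold between Cd27-Klrg1+ and Cd27+Klrg1- barcodes in each library. In wildtype these were Ctsc (higher) and Ctla2a, Ctla2b and Ctss (lower), with a background of 13.2% of 3687 genes (8.38% higher, 4.8% lower) and 26.4% of those with at least 20 UMIs. In 3XTg-AD they were Ctsc and Cst7 (higher) and Ctla2a and Ctla2b (lower), with a background of 14.3% of 3668 genes (9.76% higher, 4.53% lower) and 29.5% of those with at least 20 UMIs. The wildtype Ctss value, 0.636, had an interval past 1 (0.383 to 1.10) and was 0.769 without the interferon-high barcodes. Between ILC1-like and NK barcodes, 2 members passed in wildtype (Ctla2a higher, Ctsc lower) and 4 in 3XTg-AD (Ctla2a and Ctla2b higher, Ctsc and Ctsd lower). That background was large: 29.5% of 5570 wildtype genes (7.09% higher, 22.4% lower) and 37.8% of 5638 3XTg-AD genes (7.8% higher, 30% lower), or 38% and 45.5% of those with at least 20 UMIs. The median log2 ratio of all these genes was -0.19 and -0.28. For Ctla2a, 13 alternatives gave 1.71 to 2.29-fold in wildtype and 3.87 to 5.94-fold in 3XTg-AD, among them a count of the ILC1 genes on thinned UMIs that left 40 and 17 ILC1-like barcodes.

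The remaining genes of these pathways came from 4 lists, whose counts are of genes with at least 20 NK UMIs. Of all 9835 such genes, 6.46% were at least 1.5-fold higher in 3XTg-AD and 5.89% lower. Of 8 other cathepsins and legumain, 4 had at least 20 NK UMIs and 1 was 1.5-fold higher in 3XTg-AD, Lgmn, an asparaginyl endopeptidase that processes cathepsins, with 7 and 15 UMIs (2.14, 0.821 to 6.20). Ctse stood at 50.3 and 70.0 CPM (1.39, 1.17 to 1.66), and Ctsa at 97.3 and 114 CPM (1.17, 1.03 to 1.33). Of 8 other cystatins 2 were measured and 0 passed. Cst3, the secreted cystatin C, had a ratio of 1.18 (1.08 to 1.30) and Cstb, a cytosolic cystatin, 1.05 (0.915 to 1.20). Cst3 stood at 177 and 209 CPM in NK barcodes but at 37888 and 39439 CPM in C1qa-positive ones. The free RNA check below covers the members only, so how much free RNA adds to the Cst3 ratio was not tested. The granule genes include the granzymes that cathepsin C trims. Of 8 granule genes 0 were higher and 3 lower: Gzmb at 3015 and 1581 CPM (0.524, 0.510 to 0.540), Gzmm at 39 and 21 UMIs (0.538, 0.301 to 0.937) and Gzmc at 16 and 10 UMIs (0.624, 0.253 to 1.46), of which Gzmc is part of the rule that set NK barcodes apart. Of 29 lysosome genes 28 were measured, with 0 higher and 1 lower, Igf2r, the mannose 6-phosphate receptor that also sorts cathepsins to the lysosome (0.586, 0.465 to 0.736). Asah1, the acid ceramidase, stayed just under the limit (1.49, 1.05 to 2.14), as did Mcoln1, a lysosomal calcium channel (1.40, 1.03 to 1.92). The median log2 ratios of the 4 lists were 0.35, 0.15, -0.06 and 0.15.

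Single barcodes showed little shared variation among the 10 genes. Over 1373 wildtype and 1437 3XTg-AD NK barcodes thinned to 1400 UMIs, the median Pearson correlation of the 45 pairs was 0.018 and 0.015 (on the log of UMIs plus 1). The pair Ctla2a and Ctla2b had the highest mean, 0.118 and 0.067, and Ctsc with Ctla2a the lowest, -0.072 and -0.076. Values this weak in sparse counts are no finding, and barcodes of a library share their preparation. Ctla2a was the most uneven gene: its variance was 1.65 times its mean in wildtype and 1.49 times in 3XTg-AD, against medians of 1.01 and 1.0 for genes of like mean.

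Among 3528 genes, those most like each member over barcodes were named by mean correlation in the 2 libraries, for the 6 members found in at least 10% of thinned barcodes. For Ctla2a they were Shisa5 (0.218), Ly6e (0.216) and Thy1 (0.202), of which Ly6e and Thy1 encode surface proteins of lymphocytes. Its correlation farthest from 0 was negative, with Gzma (-0.252), the gene of granzyme A, named here after its value was seen. For Ctsc they were Gzma (0.136), Klf2 (0.102) and Itm2b (0.10), and for Cst7 Ly6c2 (0.10), Gzma (0.10) and Gzmb (0.082). Ctsd and Ctsw shared the class I genes H2-D1 (0.160 and 0.108) and H2-K1 (0.159 and 0.117) and the actin gene Actb (0.149 and 0.099). For Ctsb no gene exceeded 0.071, the value of Eif3l, followed by Dlgap4 and Cers2, both at 0.065. The Dlgap4 correlation was 0.128 in wildtype but 0.0025 in 3XTg-AD.

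Free RNA from microglia was checked because C1qa-positive barcodes were rich in several members. There Ctss stood at 3386 and 3534 CPM, Ctsd at 2311 and 2953, Ctsb at 1873 and 1387, Ctsz at 1514 and 1228 and Ctsl at 637 and 253. Ctsc stood there at 438 and 375 CPM, or 2.27 (1.13 to 4.08) and 1.46 (1.04 to 2.0) times its NK level. Ctsw stood at 398 and 534 CPM, Cst7 at 319 and 141, Ctla2a at 120 and 93.7, and Ctla2b had 0 and 2 UMIs. Of these, Ctsw in both libraries and Cst7 in 3XTg-AD were below their NK level, while the intervals of the other ratios spanned 1. These barcodes also held NK transcripts, since Ctsw was at 0.417 and 0.510 of its NK level and the NK receptor gene Ncr1 at 0.488 and 0.396. A ceiling was set by scaling each member's C1qa-positive level by the myeloid signal of NK barcodes. With the 8-gene myeloid list less C1qa, which summed to 11 wildtype and 42 3XTg-AD UMIs, the ceiling came to 5.56% and 4.61% of the NK level for Ctsl, 1.07% and 6.38% for Ctss, and under 1% for each other member. In ILC1-like barcodes the same list summed to 4 and 1 UMIs. There the ceiling was 12.1% for Ctsl in wildtype, 3.58% and 1.67% for Ctss, and 1.31% and 0.255% for Ctsz.

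The defining microglial genes were near 0 in NK barcodes: C1qb had 3 and 13 UMIs, C1qc 5 and 13, P2ry12 0 and 2, Tmem119 0 and 6, and Trem2 0 and 0. With C1qb and C1qc alone, the ceiling was 5.66% and 4.79% for Ctsl, 1.09% and 6.63% for Ctss, and under 1% for each other member. A ceiling of this kind is a point value without an interval and depends on the myeloid genes that set it. The 18 NK UMIs of Ctsl are too few to be read as expression.

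**Figure D5:**
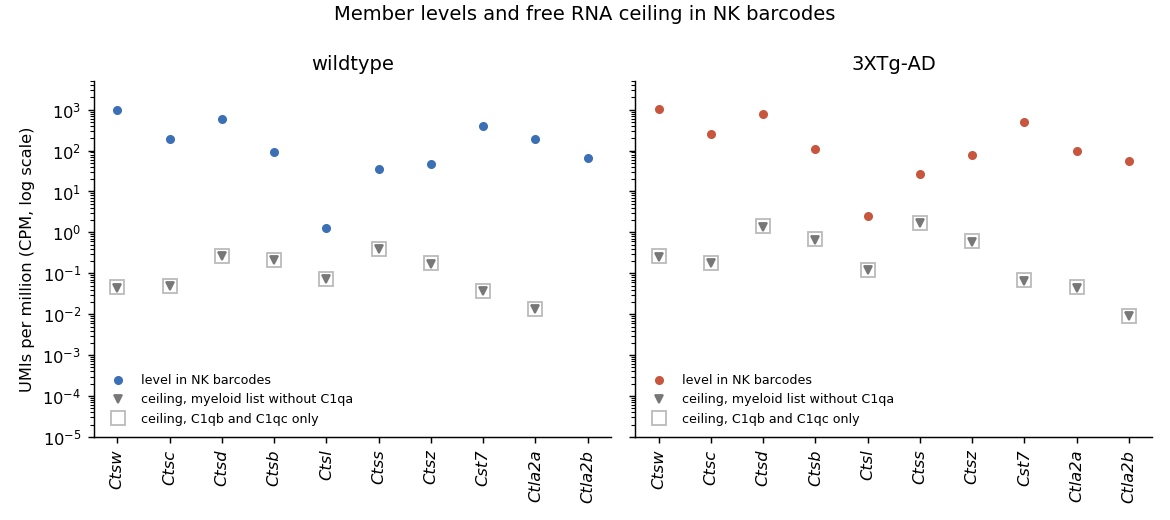
Level of each gene in NK barcodes (circles) beside the estimated ceiling of free RNA from C1qa-positive barcodes, in CPM on a log axis. The ceiling was scaled by the myeloid list without C1qa (triangles) or by C1qb and C1qc (open squares). A gene with a ceiling of 0 has no symbol for it. Both ceilings lie close together and below each level, and are nearest to it for Ctsl (5.56%) in wildtype and Ctss (6.38%) in 3XTg-AD.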

How the data were processed

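Each library's counts are UMIs per gene and barcode, deposited by the authors without normalization. Cell Ranger 3.1.0, STAR and mm10 are named in the submitters' processing notes, and per the file headers the matrices were written by version 3.0.2. Which annotation release was counted is not stated. Barcodes needed at least 300 genes and at most 10% mitochondrial UMIs; Scrublet (in scanpy 1.11.5) called 13 wildtype and 22 3XTg-AD doublets, which were left out, and 1649 and 1663 barcodes were kept. C1qa-positive barcodes had at least 2 C1qa UMIs; NK-lineage barcodes had under 3 Cd3d, Cd3e and Cd3g UMIs, under 2 B cell UMIs and under 5% erythroid or neutrophil UMIs.

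Counts were summed per class and scaled to CPM, with exact Poisson intervals, exact conditional (binomial) intervals for ratios and Clopper-Pearson intervals for shares (scipy 1.17.1). Thinning to 1400 UMIs left out 119 and 79 shallower NK barcodes. Intervals cover counting error only, and omit variation between cells, mice and preparations. A count of 0 also has an upper limit: 0 Ctsl UMIs in 3XTg-AD ILC1-like barcodes gave an interval up to 8.98 CPM. Ratios and thinning were tested on simulated Poisson counts. All members are named, with up to 3 genes of each list by size of ratio and the 3 genes with the highest (most positive) correlation with each member. The members and lists were chosen with earlier results of these data known; 1 gene of the lists is not reported here, and the lists were used without it. Coordinates come from GENCODE on mm10, and promoter sequences from RefSeq on GRCm38.p6, aligned in Biopython 1.88.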

Additional observations from a re-analysis of the deposited data

How the results depend on the processing

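Of the members' single values, 562 lay under an alternative within the counting interval of the value reported, 49 moved past it and 1 reversed. The Ctla2a ratio between libraries ran from 0.420 to 0.551 in NK barcodes over 13 alternatives and from 1.14 to 1.42 in ILC1-like barcodes over 12. In NK barcodes the count of members past 1.5-fold was 2, and 1 when barcodes were thinned to 1400 UMIs or the ILC1 genes were counted on thinned UMIs, because Ctsz came to 1.31 and 1.34. In ILC1-like barcodes that count was 0, and 1 with thinning, with no minimum of UMIs, without barcodes with a myeloid UMI, or with the limit at 2 or 5 ILC1 UMIs, and 2 with ILC1 genes counted on thinned UMIs. For ILC1-like over NK the count was 2 in wildtype, 1 with thinning and 6 with ILC1 genes on thinned UMIs, and 4 in 3XTg-AD against 7. The last setting, added after seeing the data, leaves 40 and 17 barcodes and reversed Ctla2b in 3XTg-AD from 1.86 to 0 UMIs, a ratio of 0 with an interval up to 2.49. The share of all genes past 1.5-fold is not given under the alternative settings, so the counts of members there have no background beside them. Ctsd in 3XTg-AD ILC1-like barcodes ran from 0.326 to 0.797 of the NK level. The count of members whose free RNA ceiling reached 10% of their level in NK barcodes was 0 in each library, also with C1qb and C1qc alone and with C1qa-positive barcodes taken from 1 UMI. The causes were not tested. No paired analysis was possible because each genotype had 1 library.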
